A study of Ananas comosus with 78 samples.

Results

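Aco002473 is the gene of pineapple (Ananas comosus) that the results of the study name as an auxin-associated dormancy factor. Its discussion puts the ID Aco009671 to that name, which it also gives to an auxin response factor. It was followed here as 1 gene of 27024 in all 78 libraries of a field experiment on the floral transition. It was chosen by its own readout, because ethephon lowered it at the apex in 7 of 8 samplings, so its apex values are given as a description with no p-value. The leaf base took no part in that choice and was tested.

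Plants of the cultivar that the series text calls 'MD2' and the sample labels call 'MD1' received either ethephon, 50 mg in 10 ml, or 10 ml of water as the control, placed in the centre of the plant. Ethephon breaks down in plant tissue to ethylene and is the usual agent for forcing pineapple to flower. The excised apex was sampled at 8 times, first at 6 h, then daily from day 1 to day 6 and last at day 8, and the base of the "D" leaf at the first 5 of these times. For the first sampling the study harvested plants on the morning of treatment, and its 6 h run to the end of processing that afternoon. The plants of that sampling were cut well before 6 h had passed. Later samplings were harvested in the morning and processed by noon. Time after treatment and handling thus cannot be told apart at 6 h. The labels only number the samplings, 1 to 8 at the apex and 1 to 5 in the leaf base, and the times were taken from the study. Its methods and results differ on whether the leaf was also taken on day 5, so leaf base times after 6 h rest on reading the 5 numbered samplings as 6 h and days 1 to 4. The plot was laid out as 3 replications with both treatments in each, and the labels do not say whether a replicate number is such a replication. Each of the 26 groups held 3 replicates, and each replicate pooled 3 plants, so a library is an average over plants. Leaf primordia stay on an excised apex, so in these bulk samples fewer cells of a type and less RNA per cell cannot be told apart.

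Library totals ran from 1418697 to 13180667 counted read pairs with a median of 5364716. The tissue labels were checked with 4 genes of the shoot meristem. The KNOTTED1-like homeobox genes Aco004983 and Aco015873 belong to a family that keeps meristem cells undifferentiated in other plants. Aco006233 and Aco015382 are homologs of WUSCHEL, which maintains stem cells in other plants. Their summed level was 40.8 to 602 CPM (pairs per 1000000 counted pairs) in the 48 apex libraries and 0 to 5.50 CPM in the 30 leaf base libraries. Aco015873 was the largest part of the sum at the apex, with a median of 168 CPM there. Aco006233 had no count in 28 of the 30 leaf base libraries. The range of Aco015382 overlapped between the tissues, at 0 to 21.3 CPM at the apex and 0 to 1.89 CPM in the leaf base, and those of the other marker genes did not. No apex comparison had both treatments in the same sequencing lane, so at the apex lane and treatment cannot be told apart. In the leaf base 3 of the 5 comparisons shared a lane.

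Genes of the dormancy-associated and auxin-repressed family were first described in other plants, among them pea and Arabidopsis. Their transcripts are high in buds at rest and fall when the bud starts to grow, and in several species auxin lowers them. Auxin itself moves through cells by influx and efflux carriers, and acts through response factors and early response genes such as those of the SAUR and GH3 families.

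Aco002473 lies on linkage group 4 of the Acomosus_321_v3 assembly, from base 1329628 to 1331985 on the minus strand, with 3 exons that add up to 1438 bases. Its annotated exons are at 1331798 to 1331985, 1331530 to 1331705 and 1329628 to 1330701 in the order of transcription. Aco002472 lies on the opposite strand from 1324778 to 1332287, spans the whole of Aco002473 and has 6 exons. The exons of these genes share 281 bases, which is 19.5% of the exon bases of Aco002473 and 24.8% of those of Aco002472. A read pair that could not be assigned to a single gene was left out, and strand was not used in the counting. Pairs that lie within the shared bases could therefore add nothing to Aco002473. Pairs on its other 1157 bases could, and transcripts of either strand there cannot be told apart.

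**Figure D1:**
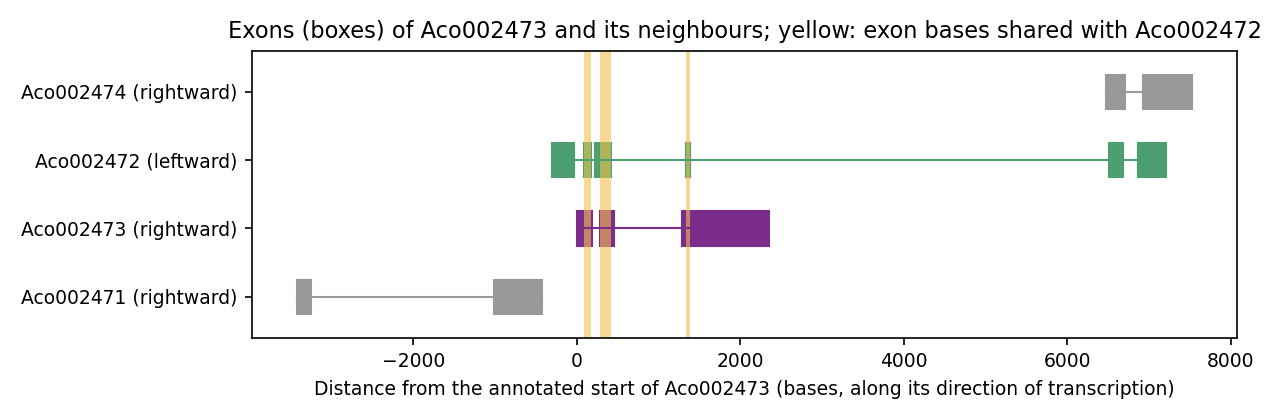
Exons (boxes) and introns (lines) of Aco002473, of the antisense gene Aco002472 and of the nearest annotated genes Aco002474 and Aco002471, by distance in bases from the start of Aco002473 along its direction of transcription. Yellow bands mark the 281 exon bases that Aco002473 shares with Aco002472, which fall in all 3 exons of Aco002473.

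Aco002472 was almost without counts. It had none in 69 of the 78 libraries and 19 counts in all, with at most 5 in any library. Aco002472 shares 455 further exon bases with Aco002474, and pairs that lie within shared bases were not counted. Few counts therefore need not mean little transcript. A count of 0 allows up to 0.228 CPM in the deepest library and 2.11 CPM in the shallowest. The gene could be fitted in 7 of the 13 comparisons of ethephon with water and was called in 0 of them by edgeR's quasi-likelihood test (lowest Benjamini-Hochberg adjusted p = 0.266). At an unadjusted p under 0.05, 0 of the comparisons passed in edgeR and 0 in DESeq2. Both groups were at or near the floor of 3 counts, so no fold change is given for Aco002472, and its level could not be set beside that of Aco002473 at this depth. At the far end of Aco002472, Aco002474 had no count in any library, and pairs that lie within the 455 shared of its 825 exon bases could give it none.

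Aco002473 was measured in every library, with 13 to 435 counts. Its mean level over the 78 libraries was 4.59 log2 CPM, and per kilobase of exon 62.1% of the 19824 genes with at least 1 CPM in 3 libraries lay lower. The 26 group means spanned a 29.7-fold range of CPM. The SD between the 3 replicates of a group was 0.32 log2 CPM at the median and ran from 0.037 to 0.69.

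The highest group was the water-treated apex at 6 h, where the 3 libraries gave 98.7, 116 and 139 CPM (6.87 ± 0.25 log2 CPM, SD, n = 3). The next was the water-treated apex at day 2 with 60.2, 76.2 and 83.8 CPM (6.18 ± 0.25 log2 CPM, SD, n = 3). These groups did not overlap. The lowest was the ethephon-treated apex at day 4 with 3.08, 4.26 and 4.58 CPM (1.99 ± 0.30 log2 CPM, SD, n = 3).

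Between these ends the groups formed a nearly continuous series. In the order of the 26 means, 22 of the 25 neighbouring pairs had overlapping ranges, and 21 differed by less than the larger of their SDs. The exceptions in range were the step from the water apex at 6 h to day 2, the step from the water apex at day 4 to day 5, and the step from the ethephon apex at day 5 to day 3. The bottom of the order held the ethephon-treated apex at days 8, 5, 3, 6 and 4. The leaf base at 6 h after water was the only leaf base group among the lowest 10.

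Without ethephon the level at the apex was lower at the later times than at the first. After 118 CPM at 6 h the means of the water-treated apex were 55.3 CPM at day 1, 73.4 CPM at day 2 and 28.1 CPM at day 3. From day 4 to day 8 they stayed between 15.8 and 22.2 CPM. The mean at 6 h was 7.46-fold that at day 5, the lowest. The day 1 libraries were spread widely, at 34.0, 57.1 and 74.9 CPM.

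With ethephon the apex started lower and ended lower. At 6 h the ethephon-treated libraries gave 36.8, 36.9 and 43.3 CPM, all below the lowest water-treated library. At day 3 they stood at 4.50, 4.54 and 4.73 CPM, against 18.2, 30.4 and 35.9 CPM after water. The mean at 6 h was 9.81-fold that at day 4, the lowest. By day 8 the ethephon-treated libraries stood at 6.07, 10.4 and 11.0 CPM, on 13, 21 and 17 counts, and the water-treated ones at 19.3, 22.3 and 22.4 CPM.

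**Figure D2:**
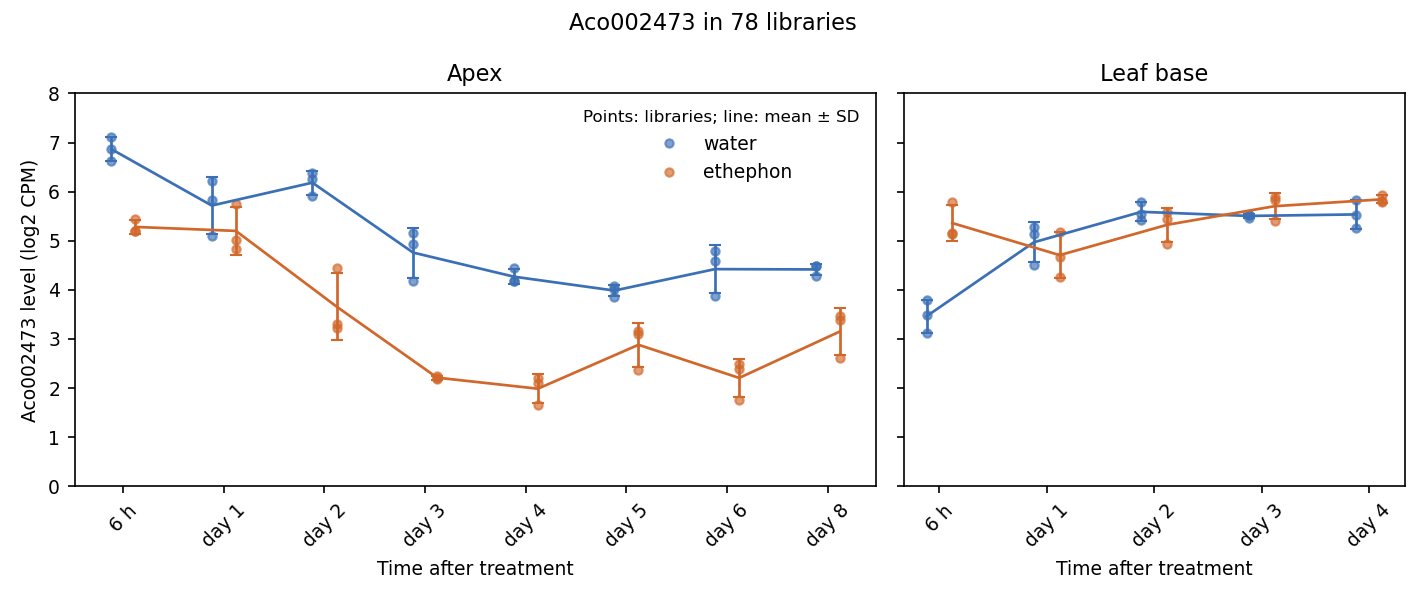
Level of Aco002473 in log2 CPM against time after treatment, at the apex (left) and the leaf base (right). Points are single libraries, and lines join group means with bars of 1 SD (n = 3). At the apex the ethephon-treated libraries lie below all water-treated libraries at every time except day 1, and in the leaf base panel the groups are apart at the first time alone.

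The apex contrasts that chose the gene were as follows, each on 3 against 3 libraries. The log2 fold change of ethephon over water was -1.62 (SE 0.22) at 6 h, -2.46 (SE 0.23) at day 2, -2.63 (SE 0.26) at day 3 and -2.37 (SE 0.22) at day 4. It was -1.06 (SE 0.23) at day 5, -2.26 (SE 0.26) at day 6 and -1.23 (SE 0.23) at day 8. The level was thus 2.08-fold to 6.21-fold lower in these 7 samplings, and the groups did not overlap in any of them. The 2-fold limit was missed without 1 library at days 5 and 8: leaving out ethephon replicate 1 gave -0.84 (SE 0.21) at day 5 and -0.98 (SE 0.25) at day 8.

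Day 1 was the sampling outside the rule. The ethephon-treated libraries gave 28.4, 32.3 and 54.0 CPM and the water-treated ones 34.0, 57.1 and 74.9 CPM, so the groups overlapped. The log2 fold change there was -0.55 (SE 0.23), below the 2-fold limit that a call needs beside an adjusted p under 0.05. The sampling just inside the limit was day 5, at 2.08-fold.

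Calls of lower level were made for 1.87% of the genes tested at the apex at 6 h, 3.63% at day 1, 5.34% at day 2 and 7.19% at day 3. The share was 2.12% at day 4, 1.23% at day 5, 2.59% at day 6 and 4.73% at day 8. No gene was called lower in all 8 samplings, 3 genes were called lower in 7, and 26 in 6. Beside Aco002473 the genes at 7 were Aco013624 on linkage group 13 and Aco028427 on linkage group 18, named here after their values were seen. Both also missed day 1, with log2 fold changes of -0.77 and -0.28 there.

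One sequencing lane held apex libraries of both treatments, from different days. The water-treated ones were 3 of day 6, at 14.7 to 27.7 CPM, and 3 of day 8, at 19.3 to 22.4 CPM. The ethephon-treated ones were 3 of 6 h, at 36.8 to 43.3 CPM, 3 of day 1, at 28.4 to 54.0 CPM, and 3 of day 5, at 5.12 to 8.92 CPM, with 1 of day 2 at 9.87 CPM and 1 of day 4 at 3.08 CPM. In that lane the ethephon libraries of 6 h and day 1 thus lay above all water libraries and those of days 2, 4 and 5 below them, and no time held both treatments.

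In the leaf base the direction after 6 h was the opposite. Ethephon-treated leaf bases gave 35.0, 35.8 and 55.2 CPM of Aco002473 and water-treated ones 8.65, 11.1 and 13.8 CPM. Every ethephon library lay above every water library. Aco002473 rose 3.71-fold, a log2 fold change of 1.89 (SE 0.24) with an adjusted p of 5.3e-05 in edgeR's quasi-likelihood test.

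The leaf base at 6 h was also the leaf base comparison with the most calls, 19.6% of the genes in either direction and 8.59% higher with ethephon. The same sign was seen inside each lane that held both treatments. In the first of these lanes 1 water library was at 11.1 CPM and 1 ethephon library at 35.0 CPM, and in the other 1 water library was at 13.8 CPM against a mean of 45.5 CPM in 2 ethephon libraries. With lane as a term in a fit of all libraries the log2 fold change was 1.86 (SE 0.29, adjusted p = 4.1e-07, edgeR).

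From day 1 on no difference at the leaf base passed the test, and the groups overlapped at each of these 4 times. At day 1 the means were 27.0 CPM with ethephon and 32.1 CPM with water, a log2 fold change of -0.25 (SE 0.23, adjusted p = 0.666, edgeR). At day 2 they were 40.8 and 48.4 CPM, with a log2 fold change of -0.25 (SE 0.21, adjusted p = 0.688, edgeR).

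At days 3 and 4 the ethephon mean was the higher one. It was 52.7 against 45.4 CPM at day 3 (log2 fold change 0.21, SE 0.14, adjusted p = 0.381, edgeR) and 57.5 against 47.0 CPM at day 4 (log2 fold change 0.31, SE 0.18, adjusted p = 0.369, edgeR). The 3 ethephon libraries of day 4 lay close together, at 55.2, 55.9 and 61.4 CPM. Of the genes tested, 1.62% were called in either direction at day 1, 1.48% at day 2, 7.13% at day 3 and 3.64% at day 4.

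**Figure D3:**
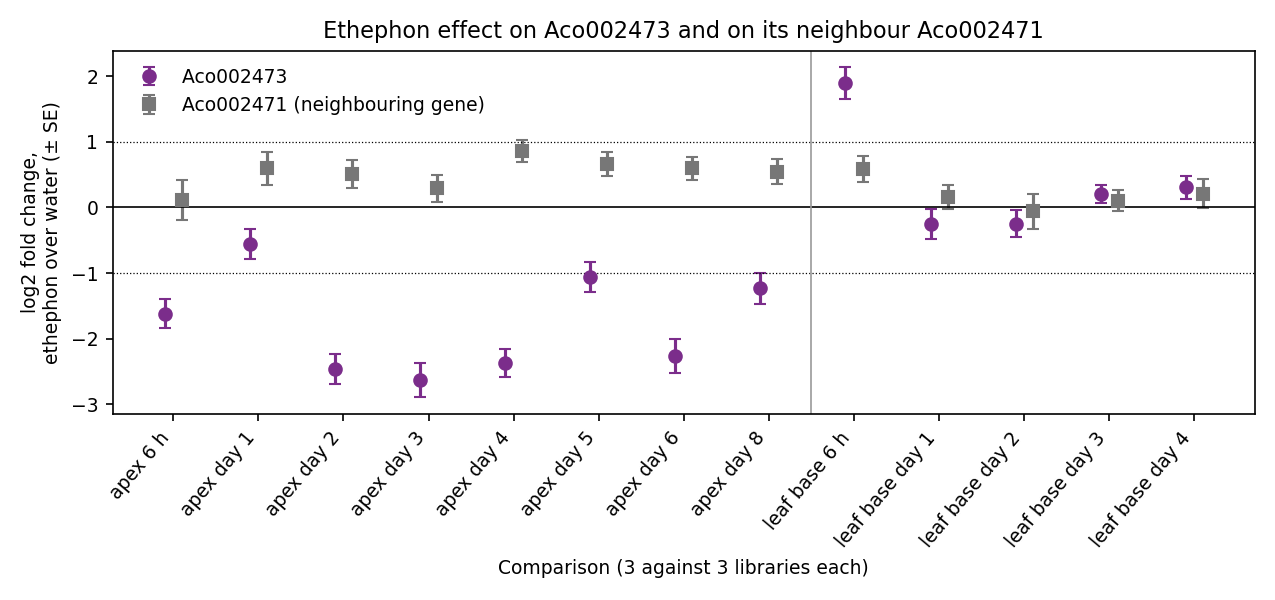
Log2 fold change of ethephon over water with its SE in the 13 comparisons of 3 against 3 libraries, for Aco002473 and for Aco002471, the next gene upstream of it. Dotted lines mark a 2-fold change. Aco002473 is at -0.55 to -2.63 at the apex and at 1.89 in the 6 h leaf base, and the other leaf base values lie between -0.25 and 0.31.

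The level in the leaf base changed with time after water. The mean was 11.2 CPM at 6 h and 32.1, 48.4, 45.4 and 47.0 CPM at days 1 to 4. Against 6 h the log2 fold changes were 1.50 at day 1, 2.09 at day 2, 2.00 at day 3 and 2.04 at day 4, and the edgeR quasi-likelihood F test over the 5 samplings gave an adjusted p of 2.84e-06. Of all genes tested, 44.6% passed that test. Without the 6 h sampling the adjusted p was 0.105, and the test was no longer passed.

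After ethephon the leaf base had no such low start. Its means were 42.0 CPM at 6 h, 27.0 CPM at day 1, 40.8 CPM at day 2, 52.7 CPM at day 3 and 57.5 CPM at day 4. The lowest group was day 1, with 19.1, 25.6 and 36.4 CPM, and the change over time passed the test (adjusted p = 0.00416, edgeR F test), as it did for 39.9% of the genes tested. The ethephon-treated leaf base at 6 h thus lay in the range of the water-treated leaf base at days 1 to 4, whose libraries ran from 22.6 to 57.1 CPM. All ethephon-treated leaf base libraries of days 3 and 4 shared a lane that held no earlier ethephon-treated leaf base library. Lane and time after ethephon therefore cannot be told apart between those days and the earlier ones.

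Set side by side, the ethephon effect on Aco002473 at the leaf base exceeded that at the apex by 3.51 (SE 0.33) on the log2 scale at 6 h and by 0.30 (SE 0.33) at day 1. At days 2, 3 and 4 the difference was 2.21 (SE 0.31), 2.84 (SE 0.30) and 2.68 (SE 0.28). These differences were not tested, because the apex values chose the gene.

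The next annotated gene upstream was not lower at the apex. Aco002471, on the same strand and 419 bases from Aco002473, was 12.2 to 27.3 CPM in the group means. It was called in 0 of the 13 comparisons by edgeR and 0 by DESeq2, since no change reached 2-fold where the adjusted p was under 0.05. In edgeR the adjusted p was under 0.05 in 5 of the 13, and the unadjusted p in 7. At the apex its fold changes were all upwards, from 0.11 (SE 0.30) at 6 h to 0.86 (SE 0.16, adjusted p = 0.000106, edgeR) at day 4 on the log2 scale. At the leaf base at 6 h it was 0.59 higher (SE 0.20, adjusted p = 0.0355, edgeR), which is 1.50-fold.

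Other genes of the auxin pathway were followed through 14 transporters and response genes that the study describes, a list that leaves out auxin response genes it names elsewhere and that the study chose on these samples. At the apex 11 of the 14 were called higher with ethephon in at least 1 sampling and 2 were called lower, with 1 gene in both; with the replicate number as a block 4 were called lower. Of all genes tested at the apex 19.4% were called higher at least once and 16.8% lower. At the leaf base 7 of the 14 were called higher and 3 lower, with 1 in both, beside 12.9% and 13.7% of all genes.

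The influx transporters, which carry auxin into the cell, were called in the same direction in both tissues. Aco004405, Aco030876 and Aco031846 rose at the apex at days 1, 2 and 3, and in the leaf base after 6 h and on day 4. Aco031846 rose at the apex at day 5 as well. At the apex at day 2 the rise was 4.15-fold, 5.50-fold and 10.2-fold, with adjusted p of 4.84e-09, 5.94e-10 and 1.5e-10 (edgeR). At the leaf base at 6 h it was 5.91-fold, 6.57-fold and 7.84-fold, with adjusted p of 0.000107, 7.82e-05 and 0.000271 (edgeR). Pairs that map to several places were counted, so these 3 genes may share reads.

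Aco002473 was lower with ethephon at the apex at days 2 and 3, where these influx genes rose, and rose with them at the leaf base at 6 h. On day 4 in the leaf base, where they rose 3.85-fold, 4.67-fold and 6.51-fold, Aco002473 was not called. At the apex at 6 h, where Aco002473 was 3.06-fold lower, 0 of the 14 auxin genes were called by edgeR and 0 by DESeq2, with 5 and 4 at an unadjusted p under 0.05. Calls were rare over all genes there as well. Of the 21762 genes tested at that time, edgeR called 405 higher and 408 (1.87%) lower. The influx genes were on the same side as Aco002473 there, 2.22-fold, 2.16-fold and 1.45-fold lower with ethephon, but did not pass the test (adjusted p = 0.111, 0.133 and 0.615, edgeR). The median log2 fold change of the 14 genes at that time was -0.01, against 0.04 for all genes.

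Efflux carriers, which carry auxin out of the cell, were called in both directions. Of the 7 on the list, 5 were called higher and 2 lower at the apex, with 1 in both, and 3 higher and 2 lower at the leaf base, again with 1 in both. Over all genes 19.4% were called higher and 16.8% lower at least once at the apex, and 12.9% and 13.7% at the leaf base. Aco011298 rose at the apex at days 2, 3, 6 and 8, by 6.04-fold at day 3 (adjusted p = 5.75e-06, edgeR). Aco000734 fell 4.42-fold at the apex at day 3 (adjusted p = 1.15e-08, edgeR) and 4.82-fold at the leaf base at day 3 (adjusted p = 4.14e-05, edgeR). Aco000734 and Aco009213 fell 2.13-fold and 2.16-fold in the leaf base after 6 h. Aco000734 rose 2.83-fold at the leaf base at day 1 (adjusted p = 0.00232, edgeR). Aco009213 fell 2.02-fold at the apex at day 1 but rose 4.37-fold there at day 4 and 3.03-fold at day 6. Aco011167 was called in 0 comparisons by either edgeR or DESeq2, with 10 of 13 at an unadjusted p under 0.05 in edgeR, 6 of them at an adjusted p under 0.05 but under 2-fold.

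Among the response genes, the auxin response factor Aco009671 rose at the apex at days 3, 4 and 6, by 2.59-fold at day 3 (adjusted p = 0.00369, edgeR). The auxin response factor Aco009779 rose 4.27-fold at the apex at day 3 (adjusted p = 3.32e-08, edgeR) and 3.17-fold at the leaf base at 6 h (adjusted p = 0.00205, edgeR). The SAUR-like gene Aco026644 rose 7.62-fold at the apex at day 3 (adjusted p = 0.000128, edgeR) but was low in both tissues. Its median was 0.616 CPM at the apex, with 5 libraries at 0 and at most 5.29 CPM, and it was at 0 in 15 of the 30 leaf base libraries. The GH3 gene Aco005530, of a family whose enzymes join auxin to amino acids, was called at the apex in 0 of 8 samplings (edgeR and DESeq2, each with 2 at an unadjusted p under 0.05) and fell 2.46-fold at the leaf base at day 2 (adjusted p = 0.00507, edgeR). The median log2 fold change of the list was largest at the apex at day 3, at 1.40 against 0.00 for all genes.

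**Figure D4:**
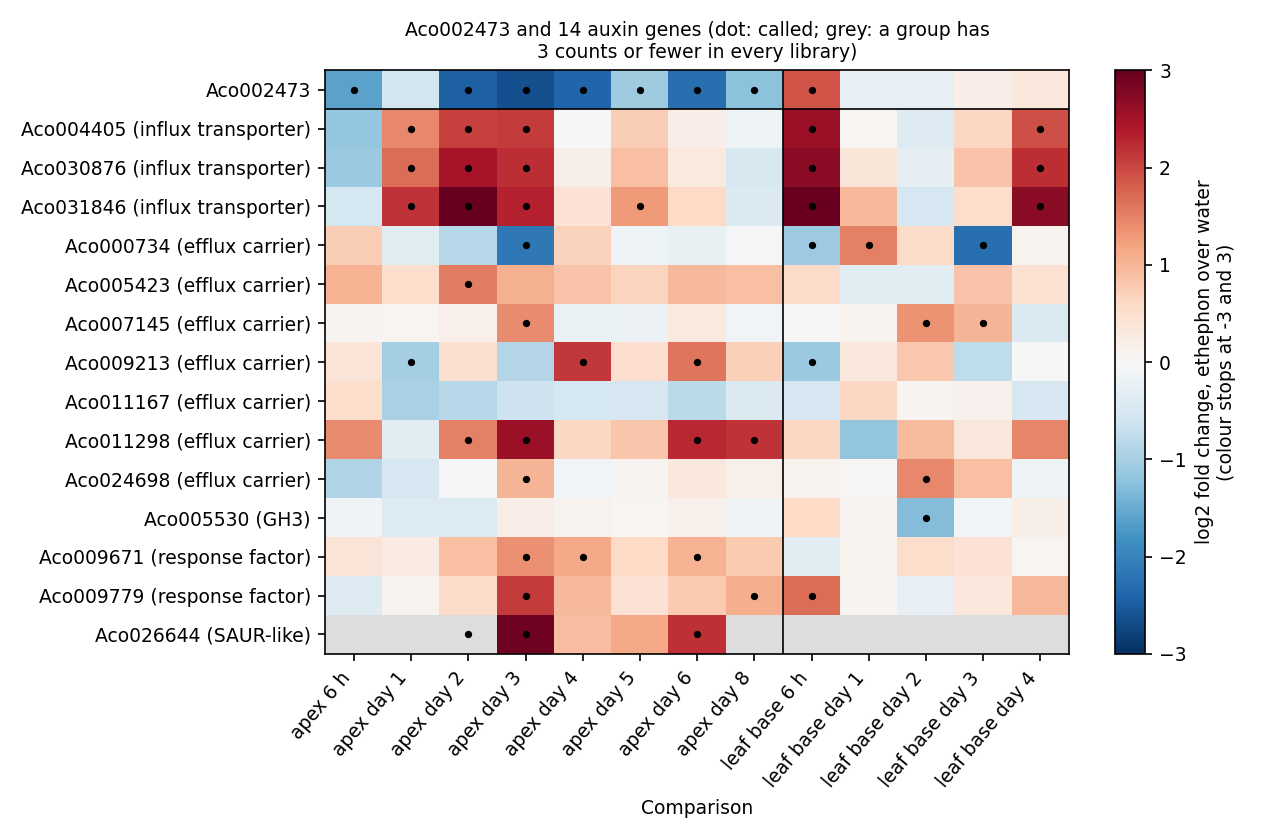
Log2 fold change of ethephon over water (colour, from blue for lower to red for higher) of Aco002473 and the 14 auxin genes in the 13 comparisons. Dots mark calls, and grey marks a comparison in which a group had 3 counts or fewer in every library. The influx transporters are red at the apex at days 1 to 3 and in the leaf base after 6 h and on day 4, where Aco002473 is blue, red and pale in turn.

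The genes most like Aco002473 were sought by Pearson's r of the 26 group means of log2 CPM among 19823 genes. The highest were Aco007209 (r = 0.895), Aco006740 (0.894), Aco027955 (0.883), Aco025325 (0.875) and Aco026796 (0.873), and no gene reached 0.9. None of these genes is annotated in the sources used here, and 4 of the 5 lie on other linkage groups. Aco027955 lies on linkage group 4, from base 7955775 to 7966988. The 26 points share their libraries' depth and normalization, and the coefficients are a description.

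Likeness rested more on the apex than on the leaf base for most of these genes. Over the 16 apex groups r was 0.879 to 0.913 for the 5, and over the 10 leaf base groups it was 0.551 to 0.914, with Aco027955 at the top. None followed Aco002473 through all its calls: they were called lower at the apex in 1 to 4 of the 8 samplings. In the leaf base after 6 h only Aco007209 was past the limits of a call, at a log2 fold change of 1.37 (SE 0.35). All group means took part in choosing these genes, so their changes are a description with no p-value. The group means of Aco002473 also ranged further than those of any of these 5, from 1.99 to 6.87 log2 CPM.

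The most opposite patterns were those of Aco016765 (r = -0.873), Aco009195 (-0.869) and Aco018144 (-0.866), each called higher with ethephon at the apex in 2 samplings. Aco016765 was lower with ethephon at the leaf base at 6 h by 1.04 on the log2 scale (SE 0.34), in groups that also entered its r. The neighbour Aco002471 had an r of -0.07 and stood at place 11311. Aco002472 did not reach 1 CPM in 3 libraries, so no r is given.

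**Figure D5:**
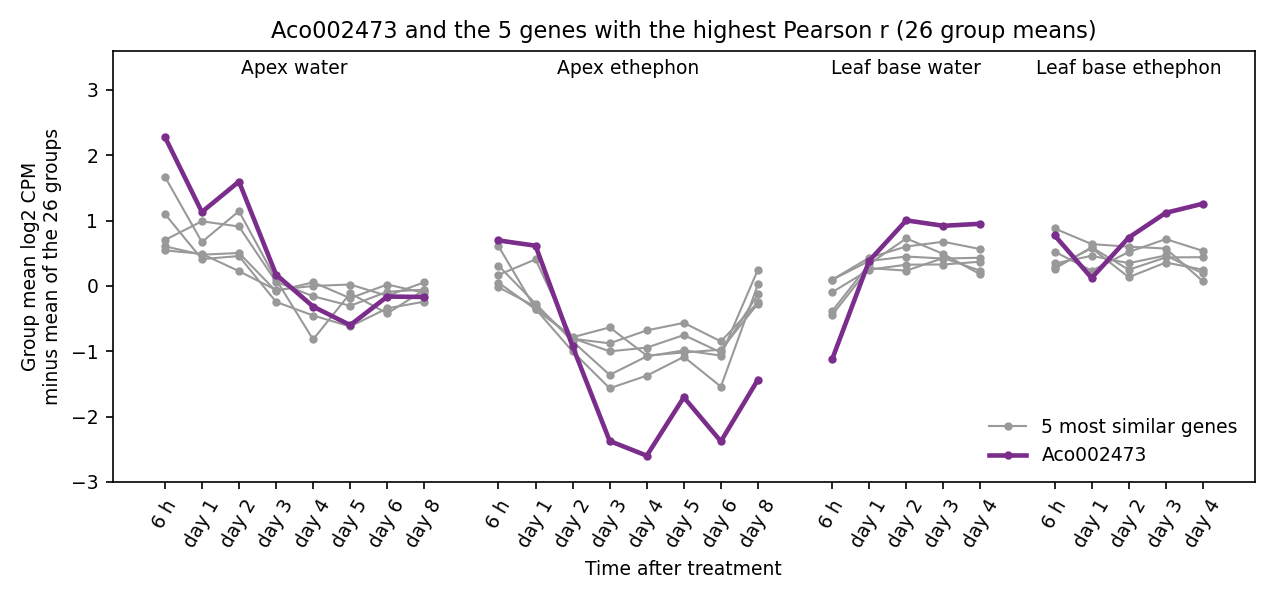
Group means of log2 CPM, each gene centred on its mean over the 26 groups, for Aco002473 (purple) and the 5 genes with the highest Pearson r (grey), by tissue, treatment and time. All 6 genes are lower in the ethephon-treated apex from day 2 to day 6 than at 6 h, and Aco002473 has the widest range, from 1.99 to 6.87 log2 CPM before centring.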

How the data were processed

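The files hold counts of read pairs per gene, 1 file for each of 78 libraries from a stranded mRNA kit. Per the file headers and labels, the authors trimmed reads with Trimmomatic 0.36, aligned them with HISAT2 2.0.5 and counted pairs on exons of Acomosus_321_v3 with featureCounts 1.6.0. The deposited counts include pairs that map to several places, leave out pairs that could not be assigned to 1 gene, and ignore strand, which lowers the count of overlapping genes.

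Ethephon was compared with water at each tissue and time by edgeR 4.0.16 (R 4.3.3): TMM, quasi-likelihood test, genes with at least 1 count, Benjamini-Hochberg adjustment over all of them, called at an adjusted p under 0.05 and at least 2-fold. Change over time at the leaf base was tested by an F test on 15 libraries. Levels are CPM scaled by TMM factors, which were set on the 19824 genes that reached 1 CPM in 3 or more libraries, and log2 CPM adds a prior count of 0.25. The tests were checked on simulated data. DESeq2 1.42.0, RLE factors, a filter, a replicate block, joint fits and left-out libraries were alternatives. The floors cover counting error only, while SDs and SEs also hold the spread between replicates.

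The 78 replicate pairs differed by more than sampling noise (lowest chi-square per gene 1.56). The study's methods describe 3 field replications with both treatments, but no source used here says that the replicate numbers are these replications. Named genes were Aco002473, Aco002472, their nearest neighbours, 14 auxin genes, and the 5 highest and 3 lowest r. The members and lists were chosen with earlier results of these data known.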

Additional observations from a re-analysis of the deposited data

Results flagged for a closer look

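At 6 h every ethephon-treated library was below every water-treated one at the apex and above every one at the leaf base for Aco002473. The log2 fold changes were -1.62 (SE 0.22) and 1.89 (SE 0.24), and the leaf base value exceeded the apex value by 3.51. The difference between the tissues was not tested. The 4 meristem marker genes summed to 40.8 CPM or more in every apex library and to 5.50 CPM or less in every leaf base library.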

How the results depend on the processing

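The rise of Aco002473 at the leaf base at 6 h was called under all alternatives run, with log2 fold changes of 1.64 to 2.11 when single libraries were left out and 1.87 with the replicate block (adjusted p = 0.000119, edgeR). The other 4 leaf base comparisons were called under none. Same-numbered replicates did not deviate together: no comparison had all 3 correlations over 0.1 (range -0.15 to 0.082), so the numbers were not taken as pairs, although they may stand for the field replications. The block changed no call of Aco002473. At the apex the same 7 of 8 samplings were past the limits under DESeq2, RLE factors, the filter, the block and the joint fit. These are the libraries that chose the gene, so this describes the processing and is no test of the fall. Without ethephon replicate 1 the log2 fold change fell short of the 2-fold limit at day 5 (-0.84) and day 8 (-0.98). With lane as a term an effect could be estimated for day 6 alone, at -2.86 (SE 0.54) against -2.26, and the cause was not tested. Change over time at the leaf base after water gave an adjusted p of 0.105 without the 6 h sampling. The count of auxin genes called lower at the apex was 4 with the replicate block and 4 without a fold limit, against 2. Of the 5 genes most like Aco002473, 1 was among the 5 by Spearman's rho, 1 over the 78 libraries and 0 over the 16 apex groups, so their order depends on the measure. Aco002472 was called in 0 comparisons under each alternative, and the filter left it out of the test. Counts behind the shares of genes called moved by over 1.5 times at the apex at day 4 (462 lower, 303 by DESeq2) and day 6 (568 lower, 203 with lane), and at the leaf base at day 1 (194 lower and 166 higher, 103 and 112 with the filter) and day 2 (129 lower and 199 higher, 61 and 97 with the block, 190 and 349 in the joint fit). Depth limits the ethephon-treated apex at day 8, with 13 to 21 counts of Aco002473 a library.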

Other observations

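Some genes of the auxin list differed widely in level between the tissues. The auxin response factor Aco009671 was at 55.8 to 150 CPM in the leaf base libraries and 2.24 to 12.4 CPM in the apex libraries. The efflux carrier Aco009213 was at 112 to 599 CPM in the leaf base and 0.481 to 25 CPM at the apex, and Aco005423 at 25.6 to 78.2 CPM and 0.768 to 12 CPM. The ranges of these 3 genes did not overlap between tissues. Aco000734, another efflux carrier, had medians of 380 CPM at the apex and 36.9 CPM in the leaf base.

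Of the other genes called lower at the apex in 7 of 8 samplings, Aco013624 was higher with ethephon at the leaf base at 6 h (log2 fold change 1.27, SE 0.33, adjusted p = 0.00898, edgeR), and Aco028427 was at 0.05 (SE 0.27, adjusted p = 0.911, edgeR). Over the 5 leaf base comparisons Aco013624 was called in 4 and Aco028427 in 1, counting either direction.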
